A study of Mus musculus with 12 samples.

Results

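The Bcl2 family genes described here are Bcl2, Bcl2l1, Mcl1, Bcl2l11, Bax, Bak1, Bbc3, Pmaip1, Bad and Bmf. They were chosen by symbol as the best known survival and death members of the family, and all 10 were among the 19910 gene symbols of the count table. All 10 also passed the filter on low counts that left 10993 genes for testing, although Bmf passed it only through the groups without mutant NRAS, so a difference of Bmf from those groups was favoured by the filter.

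The proteins of this family decide whether the outer mitochondrial membrane stays closed. Survival members (Bcl2, Bcl-xL from Bcl2l1, and Mcl1) hold the effectors Bax and Bak in check, and BH3-only proteins (Bim from Bcl2l11, Puma from Bbc3, Noxa from Pmaip1, Bad and Bmf) bind survival members or effectors and favour opening of the membrane, release of cytochrome c and activation of caspases. In blood-forming cells Mcl1 and Bcl-xL keep progenitors and maturing cells alive, and ERK, the last kinase of the pathway downstream of RAS, is known to mark Bim protein for destruction. RNA levels show neither protein amounts nor phosphorylation.

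RNA was sequenced from bone marrow of female C57BL/6J mice, 6 to 10 weeks old at isolation, after retroviral transduction with 2 vectors. Empty cells received empty vectors only, SETBP1 cells received SETBP1 (D868N) with an empty vector, NRAS cells received NRAS (G12D) with an empty vector, and SETBP1+NRAS cells received both mutants, with 3 libraries in each group. SETBP1 encodes a protein that binds DNA in the nucleus, and the D868N form is a stabilised mutant found in myeloid leukemia; NRAS encodes a GTPase that switches on MAPK signalling, and G12D locks it in the active state. By its title, the study asks if mutant SETBP1 raises the MAPK output of mutant NRAS. All 12 libraries are described as murine leukemia cells, the empty ones included. The promoter in the vectors, the number of clones and whether replicates came from separate mice or transductions are not given in the sources used here, so p-values measure the spread between these libraries, which may be technical.

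Library totals lay between 7085894 and 8864919 counts. Nras stood at 86.5 ± 5.76 normalised CPM (counts scaled to library size; SD, n = 3) in empty cells and at 1520 ± 166 in NRAS cells, and Setbp1 had counts only in the groups given the SETBP1 vector (5 to 17 a library), as the labels say. SETBP1 replicate 3 stood apart: it correlated at 0.946 and 0.953 with its sister libraries, against 0.984 or more for every other pair within a group. Among marker genes, early granule genes of myeloid progenitors summed to 26700 to 29360 normalised CPM in empty cells, while Pax5 of B cells and Cd3e and Cd8a of T cells were at 0 in every group. Other genes of the lymphoid lists had counts. In empty cells the 7 B lymphoid genes summed to 19.7 to 21.2, with Cd79b at 19.2 ± 1.47. The 10 T and NK genes summed to 378 to 421 there, with Nkg7 at 395 ± 23.5. The lineage lists also moved between groups: of 12 late neutrophil genes tested, 7 fell and 2 rose in NRAS against empty cells, and 10 fell in SETBP1+NRAS against NRAS cells. Among all genes tested, 15.5% fell and 17% rose in the former comparison, and 1.38% fell in the latter. In bulk samples, fewer cells of a type and less RNA per cell cannot be told apart.

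What unites the members is the BH3 motif, a short helix by which they bind one another. It is shown here as coding sequence because it is the feature that makes these genes a family, with the codons of the conserved leucine and of the residue pair that ends in aspartate in capitals. Each stretch of 33 bases was read 5′ to 3′ from the longest coding transcript in GENCODE M21 (build GRCm38).

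Bcl2: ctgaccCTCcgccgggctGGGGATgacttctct

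Bcl2l1: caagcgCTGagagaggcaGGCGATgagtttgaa

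Mcl1: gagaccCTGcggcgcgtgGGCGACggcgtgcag

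Bax: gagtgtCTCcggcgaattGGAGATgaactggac

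Bak1: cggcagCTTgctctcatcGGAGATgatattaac

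Bcl2l11: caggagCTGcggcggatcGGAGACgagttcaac

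Bbc3: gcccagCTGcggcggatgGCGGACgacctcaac

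Bad: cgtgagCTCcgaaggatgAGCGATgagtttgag

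Bmf: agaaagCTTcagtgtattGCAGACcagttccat

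Each of the 9 members shown held exactly 1 match to the pattern of a leucine, any 3 residues, then glycine, alanine or serine, and aspartate. Pmaip1 held 2 matches and is not shown. The residue before the aspartate was glycine in the survival members, the effectors and Bcl2l11, alanine in Bbc3 and Bmf, and serine in Bad. The pattern alone is no mark of the family, since 34% of 21559 coding genes hold it at least once.

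With mutant NRAS some members were higher and others lower. Of the 10 members, 5 were past an adjusted p of 0.05 in NRAS against empty cells, 3 higher (Bcl2, Bcl2l1 and Bcl2l11) and 2 lower (Bad and Bmf), beside 32.5% of all genes tested, 17% higher and 15.5% lower. SETBP1+NRAS against empty cells gave the same genes and Bax, with 4 members higher and 2 lower, beside 40.6% of all genes, 20.8% higher and 19.8% lower. The median log2 change of the members was 0.08 and 0.21 in these comparisons, against -0.01 for all genes tested in both. Bcl2, Bcl2l1, Bcl2l11, Bad and Bmf also differed, in the same directions, between SETBP1 cells and each group with NRAS (3 higher and 2 lower each). In SETBP1+NRAS against SETBP1 cells 42.4% of all genes were called, 20.9% higher and 21.5% lower, and in NRAS against SETBP1 cells 40.9%, 20.8% higher and 20.1% lower. These comparisons share libraries and are not independent of each other. Bmf was among the lower members in each, a direction that the low-count filter favoured. Without SETBP1 replicate 3 the members against SETBP1 cells kept direction and call: in NRAS cells Bcl2 was at log2 0.86, Bcl2l1 at 1.64, Bcl2l11 at 0.63, Bad at -0.65 and Bmf at -2.33, against 1.05, 1.63, 0.83, -0.85 and -2.08 with it.

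**Figure D1:**
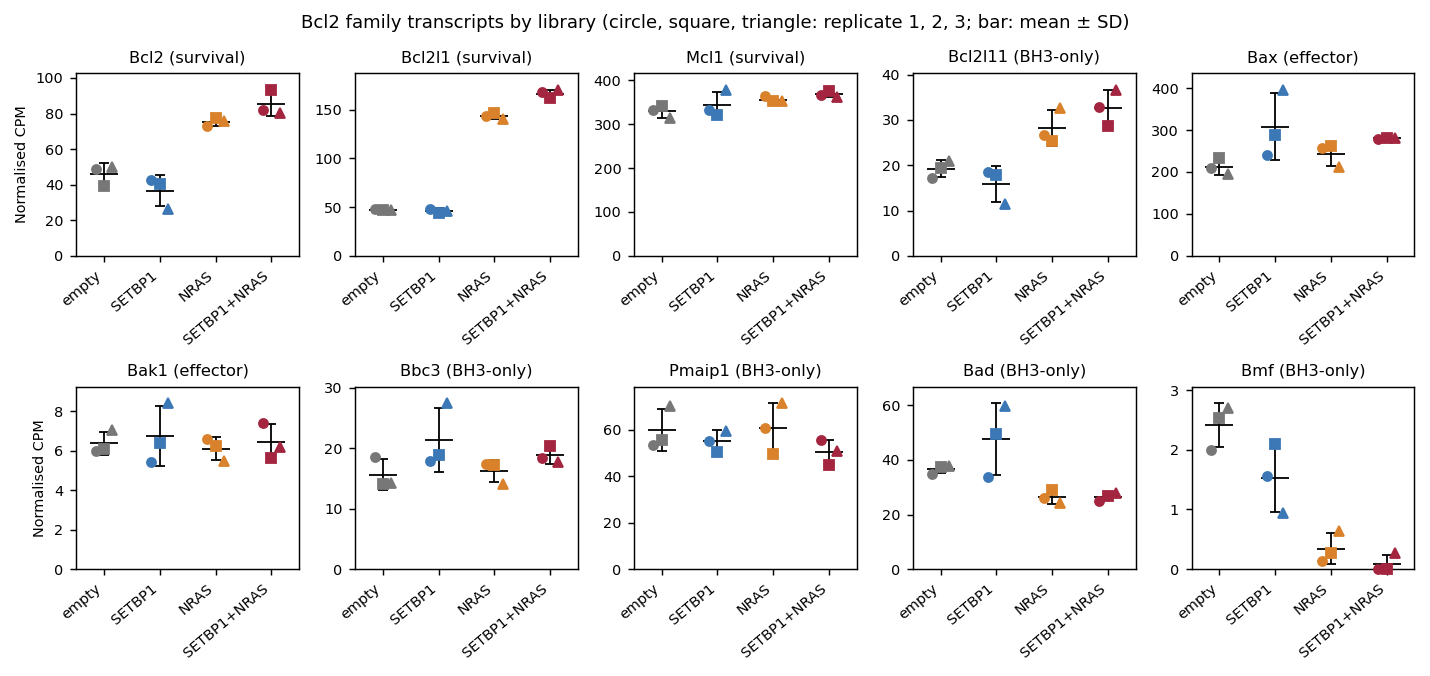
Normalised CPM of each member on the y axis, on its own scale from 0, in the 4 groups on the x axis; circles, squares and triangles are replicates 1, 2 and 3, and bars are the mean ± SD (n = 3). Bcl2l1 sits between 43.8 and 48.5 without NRAS and between 140.2 and 169.7 with it, while Bmf reaches at most 0.634 with NRAS and at least 0.947 without it.

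Bcl2l1 encodes Bcl-xL, a survival protein of the outer mitochondrial membrane, and its gene lies on the minus strand of chromosome 2 (GRCm38, chr2:152780668-152831728). It measured 48.5, 46.6 and 47.5 normalised CPM in the empty libraries and 48.5, 43.8 and 46.4 in the SETBP1 libraries. In NRAS libraries it stood at 143.5, 146.8 and 140.2, and in SETBP1+NRAS libraries at 167.7, 162.3 and 169.7. The groups with NRAS therefore lay wholly above those without, and the SETBP1+NRAS libraries wholly above the NRAS libraries. Among all genes tested, 56.3% did not overlap in NRAS against empty cells and 61.2% in SETBP1+NRAS against empty cells, beside 6 and 7 of 10 members. In SETBP1+NRAS against NRAS cells 25.2% of all genes did not overlap. The increase was 3.02-fold in NRAS against empty cells (log2 1.59, SE 0.07, adjusted p 3.98e-09) and larger in SETBP1+NRAS against empty cells (log2 1.81, SE 0.07, adjusted p 7.26e-10). By p-value its rank among all genes tested was 17 and 18 in these comparisons, ahead of every other member. SETBP1 alone left it at log2 -0.04 (95% confidence interval -0.20 to 0.12, adjusted p 0.736).

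Bcl2, the founding survival member (chr1:106538178-106714274, minus strand), measured 49.0, 39.4 and 49.9 normalised CPM in empty cells and 42.6, 40.6 and 26.5 in SETBP1 cells, replicate 3 being the low one. It measured 73.1, 77.5 and 75.8 in NRAS cells and 82.2, 93.3 and 80.5 in SETBP1+NRAS cells. As for Bcl2l1, no library with NRAS overlapped one without. Of all genes, 56.3% did not overlap in NRAS against empty cells. Bcl2 rose 1.64-fold in NRAS cells (log2 0.71, SE 0.15, adjusted p 0.00267) and 1.85-fold in SETBP1+NRAS cells (log2 0.89, SE 0.15, adjusted p 3.77e-04), each against empty cells. In SETBP1 against empty cells it was at log2 -0.33 (SE 0.16, adjusted p 0.151).

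Mcl1, a survival protein of very short life, was the flattest of the survival genes. Its lowest and highest libraries were at 313.5 and 341.0 normalised CPM in empty cells, 319.7 and 378.1 in SETBP1 cells, 351.8 and 364.0 in NRAS cells, and 362.3 and 375.0 in SETBP1+NRAS cells. Mcl1 was at log2 0.11 in NRAS against empty cells (95% interval -0.04 to 0.27, adjusted p 0.244) and at log2 0.16 in SETBP1+NRAS against empty cells (0.01 to 0.32, adjusted p 0.0833). The last of these was past the threshold without SETBP1 replicate 3 (log2 0.16, adjusted p 0.0142), as was SETBP1+NRAS against SETBP1 cells (log2 0.18, adjusted p 0.021).

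Of the effectors that open the membrane, Bax (chr7:45461697-45466898, minus strand) was the only member past the threshold in SETBP1 against empty cells, where 14.9% of all genes were, 8.31% higher and 6.55% lower. It measured 209.9, 233.7 and 195.8 normalised CPM in empty cells and 239.8, 287.7 and 395.9 in SETBP1 cells. The groups did not overlap, as was so for 33.2% of all genes in this comparison, and the widest gap was between SETBP1 replicate 3 and the rest. The change was 1.44-fold (log2 0.53, SE 0.15, adjusted p 0.0286). Without SETBP1 replicate 3 it was log2 0.31 (adjusted p 0.0319), and with a trend on transcript length and GC content removed from each library it was log2 0.07 (adjusted p 0.538). The call was also lost without empty replicate 1 (log2 0.53, adjusted p 0.0919) and without empty replicate 3 (log2 0.48, adjusted p 0.12).

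In NRAS cells Bax stood at 257.4, 261.7 and 210.9 normalised CPM, which overlapped the empty libraries (log2 0.19, SE 0.15, adjusted p 0.345; log2 0.24, adjusted p 0.0133 with the length and GC trend removed). In SETBP1+NRAS cells its values were 278.6, 281.8 and 281.6, all above the empty libraries, where 61.2% of all genes did not overlap. That change, 1.32-fold (log2 0.40, SE 0.15, adjusted p 0.0427), was lost in 13 of 26 alternatives, among them 8 of the fits that left out 1 library. It was lost without empty replicate 1 (adjusted p 0.113), empty replicate 3 (0.152), SETBP1 replicate 2 (0.0527), NRAS replicate 1 (0.0538) or 2 (0.0518), and SETBP1+NRAS replicate 1 (0.0872), 2 (0.0924) or 3 (0.0914). Without SETBP1 replicate 3 it was kept (log2 0.40, adjusted p 0.000527). Against SETBP1 cells Bax was at log2 -0.34 in NRAS cells (adjusted p 0.0763), which passed the threshold without SETBP1 replicate 1 (log2 -0.50, adjusted p 0.00624). That fit kept SETBP1 replicate 3, the library that stood apart. In SETBP1+NRAS against SETBP1 cells Bax was at log2 -0.13, and at 0.35 (adjusted p 0.000911) with the length and GC trend removed, so the direction turned with that setting. Bax overlaps 1 other gene model on the same strand, Gm45808, over 22.1% of its exonic length. Bak1, the other effector, was low and level: its group means ran from 6.09 ± 0.589 normalised CPM (SD, n = 3) in NRAS cells to 6.74 ± 1.52 in SETBP1 cells. In NRAS against empty cells Bak1 was at log2 -0.06 (95% interval -0.54 to 0.42), and in SETBP1+NRAS against empty cells at log2 0.01 (-0.47 to 0.49).

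The BH3-only genes split. Bcl2l11, which encodes Bim, a binder of every survival protein (chr2:128126038-128162547, plus strand), measured 17.3, 19.4 and 20.9 normalised CPM in empty cells and 18.6, 17.9 and 11.4 in SETBP1 cells. It stood at 26.7, 25.3 and 32.7 in NRAS cells and at 32.7, 28.7 and 36.6 in SETBP1+NRAS cells. So this death gene was higher in every library with NRAS than in any without. Groups did not overlap for 56.3% of all genes in NRAS against empty cells and for 61.2% in SETBP1+NRAS against empty cells. Bcl2l11 rose 1.70-fold in SETBP1+NRAS against empty cells (log2 0.77, SE 0.18, adjusted p 0.00394), a call kept in each of 26 alternatives. The 1.47-fold rise in NRAS against empty cells (log2 0.56, SE 0.18, adjusted p 0.0306) was lost in 9 alternatives. Among them were the fits without empty replicate 1 (adjusted p 0.119), 2 (0.0735) or 3 (0.0508) and without NRAS replicate 1 (0.0536) or 3 (0.135), and scaling by library size (0.0866) or upper quartile (0.0532). Without SETBP1 replicate 3 the call was kept (log2 0.56, adjusted p 0.00166).

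Bad, a BH3-only protein that growth factor signalling inactivates by phosphorylation (chr19:6941861-6951899, plus strand), went the other way. It measured 34.9, 37.3 and 37.8 normalised CPM in empty cells and 33.6, 49.5 and 59.8 in SETBP1 cells. It was at 26.0, 29.0 and 24.2 in NRAS cells and at 25.0, 26.9 and 27.7 in SETBP1+NRAS cells. Every library with NRAS was below every library without, and the SETBP1 libraries were the most spread. Such a lack of overlap held for 56.3% of all genes in NRAS against empty cells. Bad was 1.39-fold lower in NRAS against empty cells (log2 -0.47, SE 0.17, adjusted p 0.0477) and 1.38-fold lower in SETBP1+NRAS against empty cells (log2 -0.46, SE 0.17, adjusted p 0.0432). Both calls were close to the threshold, and both were lost with limma-voom (adjusted p 0.071 and 0.0682 in the same order). The former was lost on leaving out any 1 library other than SETBP1 replicate 1 or 3, with adjusted p of up to 0.144 (log2 -0.42, without NRAS replicate 3). The latter was lost on leaving out any 1 library of the empty or SETBP1+NRAS groups, or NRAS replicate 1 or 2, with adjusted p of up to 0.126 (log2 -0.42, without SETBP1+NRAS replicate 1). Without SETBP1 replicate 3 both were kept, at log2 -0.47 (adjusted p 0.0053) and -0.46 (adjusted p 0.00507).

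In SETBP1 against empty cells Bad was at log2 0.38 (SE 0.17, adjusted p 0.131), and past the threshold without SETBP1 replicate 1 (log2 0.58, adjusted p 0.00549). With SETBP1 replicate 3 left out instead, mean log2 CPM of Bad in SETBP1 cells was 0.15 above that of empty cells. Against SETBP1 cells Bad was 1.80-fold lower in NRAS cells (log2 -0.85, SE 0.17, adjusted p 0.00142) and 1.79-fold lower in SETBP1+NRAS cells (log2 -0.84, SE 0.17, adjusted p 0.00138). With the trend on length and GC content removed these were log2 -0.50 and -0.52, and both stayed past the threshold. Gpr137, a gene on the opposite strand, overlaps 21.9% of the exonic length of Bad. It was lower too, from 23.9 ± 1.86 normalised CPM (SD, n = 3) in empty to 15.9 ± 2.86 in NRAS cells (log2 -0.59, SE 0.14, adjusted p 0.0058). The strand rule of the counting is not given in the sources used here, so reads of the shared stretch cannot be told apart.

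Bmf, a BH3-only protein tethered to the cytoskeleton through dynein light chains (chr2:118528757-118549687, minus strand), was the rarest of the 10 and the one with the widest range. It had 18, 20 and 20 counts in the empty libraries and 13, 16 and 8 in the SETBP1 libraries. Only 1, 2 and 5 counts were found in the NRAS libraries and 0, 0 and 2 in the SETBP1+NRAS libraries. Groups with and without NRAS did not overlap, at a depth where single reads matter. Of all genes, 56.3% did not overlap in NRAS against empty cells. Bmf passed the low-count filter only through the groups without NRAS, so the p-values below are no independent support for a fall. Over summed counts scaled for library size, 58 in empty and 8 in NRAS cells, Bmf was 6.81-fold lower with NRAS (95% exact binomial interval 3.24 to 16.5, counting error only; edgeR adjusted p 0.00367). Over 58 and 2 counts it was 26.7-fold lower in SETBP1+NRAS cells (interval 7.07 to 226; adjusted p 3.91e-04). The fitted log2 changes, -2.73 and -4.52, depend on the prior count at such numbers. Between SETBP1+NRAS and NRAS cells the interval, 0.782 to 37.9, spans 1.

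Bbc3 and Pmaip1, both known as p53 targets, were past the threshold in none of the comparisons. Bbc3 stood at 15.6 ± 2.57, 21.4 ± 5.29, 16.2 ± 1.88 and 18.8 ± 1.36 normalised CPM (SD, n = 3) in empty, SETBP1, NRAS and SETBP1+NRAS cells. In SETBP1 against empty cells it was at log2 0.45 (SE 0.19, adjusted p 0.111), with replicate 3 again the highest library, at 27.5. It was past the threshold without SETBP1 replicate 1 (log2 0.57, adjusted p 0.0427), as was its difference between NRAS and SETBP1 cells (log2 -0.53, adjusted p 0.0407). With SETBP1 replicate 3 left out instead, mean log2 CPM of Bbc3 in SETBP1 cells was 0.24 above that of empty cells. Pmaip1 stood at 59.9 ± 9.18, 55.0 ± 4.66, 60.6 ± 10.9 and 50.3 ± 5.38 in the same order, with overlapping groups throughout. In SETBP1+NRAS against empty cells Pmaip1 was at log2 -0.25 (95% interval -0.57 to 0.06, adjusted p 0.187), and at adjusted p 0.0441 when only those groups were fitted and 0.0492 with scaling by library size.

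**Figure D2:**
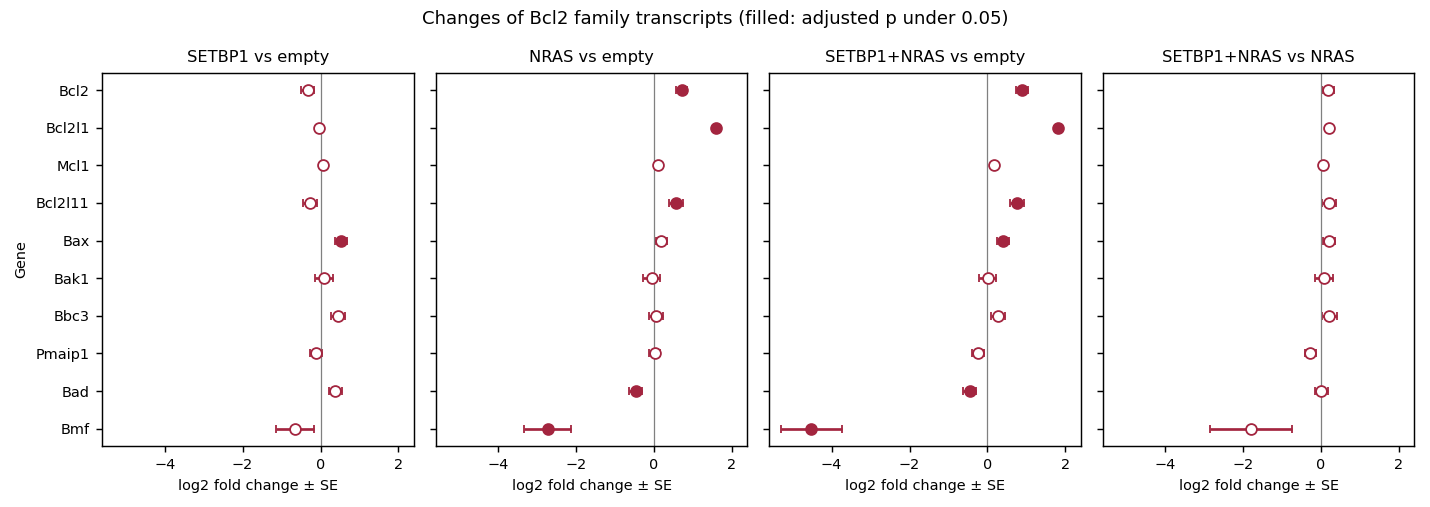
Log2 fold change (x axis) ± SE of each member (y axis) in 4 comparisons, from the edgeR fit to all 12 libraries; filled points had an adjusted p under 0.05. In NRAS and SETBP1+NRAS against empty cells Bcl2l1 is highest, at 1.59 and 1.81, and Bmf lowest, at -2.73 and -4.52, while no point is filled for SETBP1+NRAS against NRAS.

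Ordering the 4 groups for each member gave 1 recurring step. For Bcl2, Bcl2l1 and Bcl2l11 the order was SETBP1, empty, NRAS, SETBP1+NRAS from low to high, and only the step from empty to NRAS was past the threshold. In Bmf the order was SETBP1+NRAS, NRAS, SETBP1, empty from low to high, and only the step from NRAS to SETBP1 was past it (adjusted p 0.0199), a step that the low-count filter favoured. That step was lost without SETBP1 replicate 2 (adjusted p 0.0627) and without NRAS replicate 1 (0.0841) or 2 (0.0711). Bad ran from NRAS and SETBP1+NRAS, at 26.4 ± 2.39 and 26.5 ± 1.37 normalised CPM (SD, n = 3), through empty to SETBP1, with the step from SETBP1+NRAS to empty past it. No neighbours in the order of Mcl1, Bax, Bak1, Bbc3 or Pmaip1 differed past the threshold.

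SETBP1+NRAS against NRAS asks what mutant SETBP1 added in cells with mutant NRAS, and 0 of 10 members were past the threshold, where 1.91% of all genes were, 0.528% higher and 1.38% lower. DESeq2 and limma-voom also called 0. At an unadjusted p under 0.05 there was 1 member, Bcl2l1, beside 11.7% of all genes. It was 1.16-fold higher in SETBP1+NRAS cells (log2 0.21, SE 0.07, 95% interval 0.06 to 0.37, adjusted p 0.173), with all 3 SETBP1+NRAS libraries above all 3 NRAS libraries. Of all genes, 25.2% did not overlap in this comparison. The Bcl2l1 difference was past the threshold when only those 2 groups were fitted (adjusted p 0.0342), without SETBP1 replicate 3 (0.0484) and with sample quality weights (0.0116). Bcl2 was at log2 0.18 (interval -0.14 to 0.50) and Bcl2l11 at log2 0.21 (-0.17 to 0.59).

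The interaction asks whether the SETBP1 change was the same with and without NRAS, on the log2 scale. Again 0 of 10 members were past the threshold by edgeR, DESeq2 or limma-voom, where edgeR called 0.0455% of all genes, 0.0091% higher and 0.0364% lower. At an unadjusted p under 0.05 there were 2, beside 12.9% of all genes: Bcl2 (log2 0.51, SE 0.22, adjusted p 0.355) and Bcl2l1 (log2 0.25, SE 0.10, adjusted p 0.344). For Bcl2 the SETBP1 change was log2 -0.33 without NRAS and 0.18 with it, and neither was past the threshold. With SETBP1 replicate 3 left out, mean log2 CPM of Bcl2 in SETBP1 cells differed from that of empty cells by -0.14.

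SETBP1 replicate 3 moved the members according to transcript length. Against the mean of the other SETBP1 libraries, it was higher in the shortest: Bax by log2 0.59 (1100 bases), Bad by 0.55 (1533), Bbc3 by 0.58 (1814) and Bak1 by 0.49 (2387). It was lower in the longest: Bmf by log2 -0.78 (4642 bases), Bcl2l11 by -0.67 (5036) and Bcl2 by -0.65 (7191). Bcl2l1, Pmaip1 and Mcl1, of 2568 to 3418 bases, lay between 0.01 and 0.21. The same slope ran through all genes tested, from a median of log2 0.25 in the shortest of 4 equal length classes to -0.51 in the longest. The values of SETBP1 cells for Bax, Bad, Bbc3, Bak1, Bcl2, Bcl2l11 and Bmf given above thus move with this library, while those of NRAS and SETBP1+NRAS against empty cells do not use it except in the shared estimate of the spread.

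**Figure D3:**
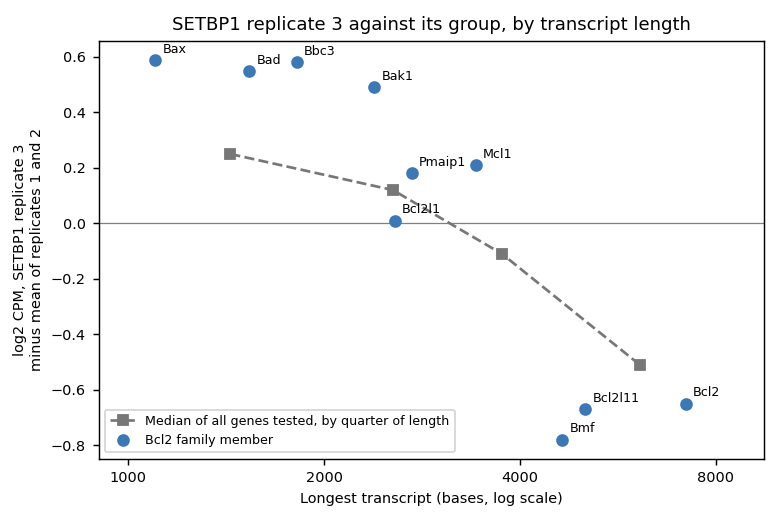
Log2 CPM of SETBP1 replicate 3 minus the mean of SETBP1 replicates 1 and 2 (y axis) against the length of the longest transcript in bases (x axis, log scale); circles are the members, and squares joined by a dashed line are medians of all genes tested in 4 classes of length. Bax, the shortest, is at 0.59 and Bcl2, the longest, at -0.65. The lowest point is Bmf, at -0.78, which rests on 8 counts in replicate 3 against 13 and 16.

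Levels were compared between members only per length, as normalised CPM per kilobase of exon in the basic set of GENCODE M21. In empty cells Bax had the highest level, 246 ± 22.1 (SD, n = 3), followed by Mcl1 at 96.2 ± 4.10 and Pmaip1 at 21.9 ± 3.36. Bcl2l1 ranked 5 of 10 at 12.2 ± 0.238 and Bcl2 ranked 7 at 5.03 ± 0.639, with Bcl2l11 at 2.78 ± 0.267, Bak1 at 2.67 ± 0.239 and Bmf last at 0.499 ± 0.0769. Bax and Mcl1 kept ranks 1 and 2 in all 4 groups, and Bmf the last. Bcl2l1 stood at rank 3 with NRAS, at 36.9 ± 0.849, and with both mutants, at 42.8 ± 0.984. The longest Bax transcript of the full annotation, 1100 bases, lies outside the basic set and is longer than the 867 exonic bases used here. Per kilobase of the longest transcript, a scale added after seeing the data, Bax stood at 194 ± 17.4 in empty cells, Bax, Mcl1 and Bmf kept their ranks in all 4 groups, and Bad (23.9 ± 1.03) rather than Pmaip1 (22.0 ± 3.37) had rank 3 in empty cells. Per kilobase of coding sequence Bax, Mcl1 and Bmf kept these places, and Bcl2l1 had rank 4 in empty cells and rank 3 in both groups with NRAS.

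**Figure D4:**
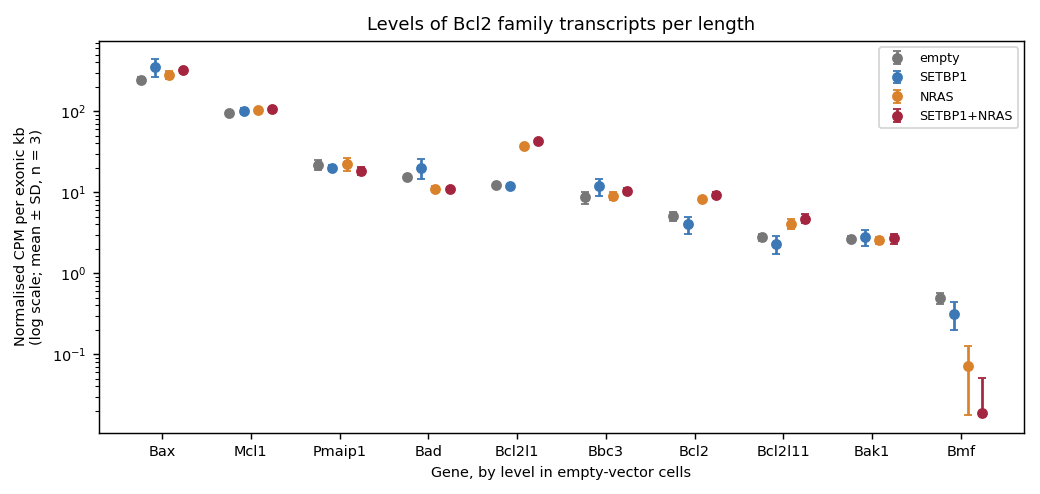
Normalised CPM per exonic kilobase (y axis, log scale; mean ± SD, n = 3) of each member (x axis, ordered by its level in empty cells) in the 4 groups. Bax is highest and Bmf lowest in each group; no lower bar is drawn for Bmf in SETBP1+NRAS cells, where the SD exceeds the mean.

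The other family members were read as a list of 16 genes, of which 10 were tested. Counts in this and the following lists stand beside the shares of all genes tested. These were 17% higher and 15.5% lower in NRAS against empty cells, and 8.31% higher and 6.55% lower in SETBP1 against empty cells. Counts near these shares are no result about a list. In NRAS against empty cells 0 rose and 2 fell: Bnip3l, a mitophagy receptor, by log2 -1.34 (SE 0.11, adjusted p 1.03e-06), and Bcl2l14 by -1.31 (SE 0.38). SETBP1 against empty cells gave 4 higher and 1 lower, at a list median of log2 0.26 against -0.01 for all genes. Of these, 3 were copies of the survival gene Bcl2a1, with Bcl2a1b at 65.0 ± 11.2 normalised CPM in empty and 123 ± 37.6 in SETBP1 cells (SD, n = 3), a rise of log2 0.92 (SE 0.18, adjusted p 0.00662). SETBP1 replicate 3 was the highest library for all 3. Without it the counts were again 4 higher and 1 lower, at a list median of log2 0.26, and Bcl2a1b was at log2 0.65 (SE 0.12, adjusted p 0.000998). The copies are nearly identical, so their reads may be split or lost and they are not separate evidence. Hrk and Bcl2l10 had no count in any library.

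Downstream of the mitochondria, the apoptosome and caspase list had 17 genes tested. In NRAS against empty cells 2 rose and 2 fell, beside 17% and 15.5% of all genes. Casp6, an executioner caspase, stood at 30.1 ± 4.26 in empty and 81.5 ± 14.8 normalised CPM in NRAS cells (SD, n = 3) and rose by log2 1.44 (SE 0.18, adjusted p 4.55e-05), and Diablo, an antagonist of caspase inhibitors, by log2 0.28. The inhibitors Birc2 and Birc3 fell by 0.53 and 0.62 on the log2 scale. SETBP1 against empty cells gave 4 higher and 2 lower, beside 8.31% and 6.55% of all genes. Cycs, which encodes cytochrome c, was at log2 0.45 and Apaf1, its partner in the apoptosome, at log2 -0.73. Apaf1 was lowest in SETBP1 replicate 3. Without that library 3 genes were higher and 2 lower, with Cycs at log2 0.41 (adjusted p 0.0201) and Apaf1 at log2 -0.45 (adjusted p 0.0148).

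In the death receptor list, with 11 genes tested, 2 rose and 4 fell in NRAS against empty cells, beside 17% and 15.5% of all genes. The ligand Tnf, at 10.8 ± 2.79 normalised CPM in empty and 63.2 ± 4.51 in NRAS cells (SD, n = 3), rose by log2 2.53 (SE 0.18, adjusted p 1.79e-07). Among receptors, Tnfrsf10b rose by log2 1.37, whereas Fas fell by 1.21 and Tnfrsf1a by 0.51. In SETBP1+NRAS against empty cells the counts were again 2 higher and 4 lower, beside 20.8% and 19.8% of all genes.

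p53 and its targets gave 3 higher and 3 lower of 16 tested in NRAS against empty cells, beside 17% and 15.5% of all genes. Mdm2, which restrains p53, was at 129.9 ± 5.33 normalised CPM in empty and 276 ± 8.58 in NRAS cells (SD, n = 3), a rise of log2 1.09 (SE 0.07, adjusted p 1.3e-07), and Cdkn1a, a cell cycle inhibitor, by log2 0.78. Trp53inp1 fell by 1.70 and Sesn1 by 0.81. The p53 targets among the members, Bax, Bbc3 and Pmaip1, were at log2 0.19, 0.05 and 0.02 in that comparison.

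The remaining lists held factors upstream of BH3-only genes and proteins that bind or turn over family members. Their counts stand beside 17% of all genes higher and 15.5% lower in NRAS against empty cells. Of 14 upstream factors tested, 6 rose and 0 fell in NRAS against empty cells; Egr1 and Jun, early targets of MAPK signalling, rose by log2 3.94 and 1.68, and Dynll2, the dynein light chain that tethers Bmf, by 0.71. Foxo3 and Foxo1, named here for their known part in driving Bcl2l11 on growth factor withdrawal, were at log2 -0.04 and -0.26 (adjusted p 0.945 and 0.452). Of 15 partners and turnover genes 5 rose and 2 fell. Pim1 and Pim2, kinases that phosphorylate Bad, were lower, Pim1 standing at 49.7 ± 9.79 normalised CPM in empty and 19.4 ± 4.54 in NRAS cells (change of log2 -1.35, SE 0.19, adjusted p 9.56e-05). Those that rose were Vdac2, a channel that holds Bak at the mitochondrion, by log2 0.53, Ywhae by 0.38, Ywhaz by 0.34, Akt1 by 0.32 and Rps6ka1 by 0.25.

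Output genes of the MAPK pathway differed between the groups with and without NRAS. Counts here stand beside 17% of all genes higher and 15.5% lower in NRAS against empty cells. Of 9 tested, 8 rose in NRAS against empty cells, and their summed level ran from 116.8 to 127.4 normalised CPM in empty cells, from 114.9 to 125.4 in SETBP1 cells, from 612 to 657 in NRAS cells and from 646 to 692 in SETBP1+NRAS cells, with 1 gene (Epha4) at 0 in the groups without NRAS. Of 9 mast cell and basophil markers tested, 8 fell in NRAS against empty cells. Their sum ran from 1475 to 1504 normalised CPM in empty, 808 to 1050 in SETBP1, 574 to 965 in NRAS and 362 to 492 in SETBP1+NRAS cells, with none at 0. These sums overlapped between SETBP1 and NRAS cells, and the list was mixed there. Of the 9 genes, 1 was higher and 4 were lower in NRAS against SETBP1 cells, beside 20.8% and 20.1% of all genes. Other lists fell as well, among them 6 of 8 early granule and 4 of 6 megakaryocyte genes in NRAS against empty cells. Early granule sums ran from 26700 to 29360, 20370 to 21910, 12030 to 13400 and 7572 to 8018 in the same order of groups. The part of these lists in the changes of the members was not tested.

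Genes nearest in pattern were found for the 3 members with the widest range, by the root mean square difference of centred log2 CPM over the 12 libraries among 8421 genes. For Bcl2l1 they were Irf2bpl (0.126), Hip1 (0.141) and Fyn (0.142), against a median of 0.869 for the pool. For Bcl2 they were Lrp12 (0.101), Ppp2r2a (0.115) and Sh2b3 (0.120), against 0.562. For Bmf they were Mcpt8 (0.372), a basophil protease, Fstl3 (0.377) and Nkg7 (0.408), a cytotoxic granule protein, against 1.31. Mcpt8 went from 630 ± 29.2 normalised CPM (SD, n = 3) in empty to 197 ± 52.3 in NRAS and 90.1 ± 23.1 in SETBP1+NRAS cells.

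Because Bcl2, Bcl2l1 and Bcl2l11 rose together, the promoter windows of the members in RefSeq (GRCm38.p6, 250 bases before to 50 after each start) were searched on both strands. The 17 windows of 9 members held no AP-1 site (TGANTCA, in 7.81% of all 32851 windows) and no CRE (TGACGTCA, 1.79%). An ETS site (CCGGAAGT, 3.89% of all) stood in 1 window of Bcl2l1, past the start, and E-boxes (CACGTG, 7.15%) in 1 window each of Bax and Bbc3. A FOXO site (GTAAACA, 3.65%) stood in 1 window each of Bcl2l11 and Bbc3. The Bcl2l11 match begins 227 bases before the start. It is shown in capitals within the 60 bases at chr2:128125788-128125847, plus strand, because FOXO factors are known drivers of this gene.

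Bcl2l11: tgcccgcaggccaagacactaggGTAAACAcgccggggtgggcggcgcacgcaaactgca

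A match of letters is a description of the window and says nothing about binding in these cells.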

How the data were processed

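The deposited table holds raw counts per gene symbol for 12 libraries, 3 in each of 4 groups taken from the labels. The authors used STAR, DESeq2 and build mm10, per the submitters' processing notes; the counter and annotation are not given in the sources used here. Per the labels' protocols, total RNA was made into libraries with a SmartSeq low-input kit.

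Counts were fitted as 4 group means with edgeR 4.0.16 (TMM scaling, filterByExpr with a minimum count of 10 and a total of 15, quasi-likelihood F test, R 4.3.3). p-values were adjusted by Benjamini-Hochberg over 10993 genes, at a threshold of 0.05, and intervals are 95%. Tested genes held 99.93% of all counts. Totals of 7085894 to 8864919 counts limit Bmf most. Alternatives changed scaling, filter, libraries, threshold or tool (DESeq2 1.42.0, limma-voom 3.58.1), and the fit was tested on simulated data. Sample quality weights and removal of a length and GC trend, levels per longest transcript and lists without SETBP1 replicate 3 were added after seeing the data. Gene models came from GENCODE M21 (19907 of 19910 symbols matched).

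All 10 members were named with their values. From each pathway list up to 3 called genes that changed most each way, or any of 5 or fewer called, were named, with the 3 genes nearest in pattern to each of the 3 members of widest range. Members and lists were chosen with earlier results of these data known.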

Additional observations from a re-analysis of the deposited data

How the results depend on the processing

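Bcl2 and Bcl2l1 kept their calls against empty and SETBP1 cells in 26 of 26 alternatives in both groups with NRAS, with adjusted p of at most 1.84e-07 for Bcl2l1 in NRAS against empty cells. No member past the threshold reversed. In SETBP1 against empty cells the 1 member called, Bax, became 0 when only the groups compared were fitted, with a replicate block, at an adjusted p of 0.01 and with the length and GC trend removed. At an adjusted p of 0.01, NRAS against empty cells had 3 members called in place of 5, beside 2289 of all genes in place of 3576. SETBP1+NRAS against NRAS cells had 1 (Bcl2l1) when only those groups were fitted and with sample quality weights. Leaving out 1 library at a time gave 0 to 3 members in SETBP1 against empty cells, 3 to 5 in NRAS against empty, 4 to 7 in SETBP1+NRAS against empty, 0 to 1 in SETBP1+NRAS against NRAS, 5 to 6 in SETBP1+NRAS against SETBP1, 4 to 7 in NRAS against SETBP1 and 0 in the interaction. Counts of all genes moved too: in SETBP1 against empty cells they went from 1633 to 3191 without SETBP1 replicate 1. Over all alternatives they ran from 3117 to 6270 in SETBP1+NRAS against empty cells. Against SETBP1 cells they ran from 3043 to 5185 in SETBP1+NRAS cells and from 2848 to 5116 in NRAS cells. The share of all genes called in each fit that left out 1 library is not given here. The counts of members alone therefore say little about the members. The cause of these shifts was not tested.

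Replicate numbers did not pair the samples: 1 of 18 same-number pairs correlated above 0.1 (range -0.127 to 0.124), and 1 of 12 libraries correlated best with its own number. With the replicate block, 4 members were called in NRAS and 5 in SETBP1+NRAS against empty cells, where Bcl2l11 (adjusted p 0.0518) and Bax (0.0611) were lost. The share of all genes called with the block is not given here.

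Among all genes, 1633 were called in SETBP1 against empty cells, and the alternatives ran from 110 (only the groups compared) to 3191 (without SETBP1 replicate 1). SETBP1+NRAS against NRAS cells had 210, from 86 to 1038, and NRAS against empty 3576, from 2289 to 5586. The interaction had 5, from 1 to 351. Scaling by library size moved the median of all genes to log2 -0.10 in NRAS and -0.13 in SETBP1+NRAS against empty cells. Depth limits Bmf, where filters on a mean count of 10 or 50 removed the gene. Bmf was in 24 of the alternatives against empty cells and in 23 against SETBP1 cells.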
